A study of Mus musculus with 20 samples.

Results

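Fibronectin, tenascin C and the laminin chains are secreted proteins of the extracellular matrix. The genes described here are 9, matched by mouse symbol: Fn1 (fibronectin), Tnc (tenascin C), the laminin alpha chains Lama1, Lama3, Lama4 and Lama5, the beta chains Lamb1 and Lamb3, and the gamma chain Lamc1. They stand among 19311 genes listed for one set of libraries and 24454 for the other. Total RNA was sequenced from cells of 1 mouse mammary tumour line, Py2T, which comes from MMTV-PyMT mice, in which the mouse mammary tumour virus promoter drives the polyoma middle T oncogene. There were 20 libraries, 2 for each of 10 groups, from 2 independent experiments per the labels. Py2T LT cells were Py2T cells exposed to TGF-beta 1 at 2 ng/ml over more than 10 days. M1, M2 and M3 were stable mesenchymal cells, each of them 1 clone, and the labels do not give their TGF-beta state. The other 6 groups were all M3 cells, with a control hairpin (shControl) or a hairpin against Tet2 (shTet2) or Mbd3 (shMbd3). Each of these was left untreated or received CI994, which blocks class I histone deacetylases, at 2 µM over 72 hours. The enzyme Tet2 oxidises methylated cytosine. Mbd3 belongs to the NuRD complex, which carries histone deacetylases. The series title asks about their part in the passage between epithelial and mesenchymal states and in invasion.

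Laminins are trimers of an alpha, a beta and a gamma chain, and they form the sheet of the basement membrane on which epithelial cells sit. Trimers that hold Lama3 and Lamb3 anchor epithelia through integrin alpha 6 beta 4 (Itga6, Itgb4), whereas trimers of Lamb1 and Lamc1 with Lama1, Lama4 or Lama5 are found in embryonic, vascular and most adult basement membranes respectively. Fibronectin is assembled into fibrils through integrin alpha 5 beta 1 (Itga5, Itgb1) and its rise is a classical sign of the epithelial to mesenchymal transition, while tenascin C, a large modular glycoprotein, is known from wounds and tumour stroma and is induced by TGF-beta in many cells.

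Sequence just upstream of a listed start site was at hand for 4 of the 9 genes, from RefSeq (GRCm38.p6), and all 4 are shown. Tnc and Lamb3 were lower in the clones and rose in both knockdowns, Lama5 was higher in the clones, and Lamb1 was lower in the clones and called in neither knockdown. Each stretch is the 250 bases before the most upstream start in the RefSeq promoter table, read 5′ to 3′ on the gene's strand, with matches to the motifs searched in capitals. They lie at chr4:64047016-64047265 (minus strand) for Tnc, chr2:180225860-180226109 (minus) for Lama5, chr12:31265043-31265292 (plus) for Lamb1 and chr1:193301744-193301993 (plus) for Lamb3. The gene spans given further on cover all annotated transcripts, so the Lamb3 stretch lies wholly inside its gene's span and those of Lamb1 and Lama5 partly.
Tnc: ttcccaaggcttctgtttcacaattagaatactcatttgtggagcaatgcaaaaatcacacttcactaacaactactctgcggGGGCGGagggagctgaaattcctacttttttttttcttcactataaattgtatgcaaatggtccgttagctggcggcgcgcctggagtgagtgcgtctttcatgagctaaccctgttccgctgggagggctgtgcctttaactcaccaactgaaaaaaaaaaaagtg
Lama5: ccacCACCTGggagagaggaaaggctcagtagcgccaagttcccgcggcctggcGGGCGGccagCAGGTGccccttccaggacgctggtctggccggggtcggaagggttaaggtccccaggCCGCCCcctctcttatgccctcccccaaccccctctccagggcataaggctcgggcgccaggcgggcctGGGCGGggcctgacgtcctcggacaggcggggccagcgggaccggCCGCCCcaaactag
Lamb1: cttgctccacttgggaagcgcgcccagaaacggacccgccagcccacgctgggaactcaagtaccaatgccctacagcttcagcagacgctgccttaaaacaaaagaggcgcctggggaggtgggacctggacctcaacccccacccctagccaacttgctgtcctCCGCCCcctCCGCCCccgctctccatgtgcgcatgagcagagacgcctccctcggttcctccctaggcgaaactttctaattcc
Lamb3: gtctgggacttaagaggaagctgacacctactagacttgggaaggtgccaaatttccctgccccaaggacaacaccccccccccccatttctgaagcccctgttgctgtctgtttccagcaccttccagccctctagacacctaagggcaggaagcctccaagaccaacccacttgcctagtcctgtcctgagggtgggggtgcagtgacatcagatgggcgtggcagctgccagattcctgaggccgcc
The motifs, searched on both strands, were the AP-1 site TGANTCA, the cyclic AMP response element TGACGTCA, the E-box CAGGTG bound by Zeb and Snail factors, the GC box GGGCGG and the SMAD box GTCTAGAC. Among 27025 upstream stretches of the same length, 6.85%, 1.6%, 17.1%, 33.0% and 0.174% held them, in that order. The Lama5 stretch held 2 E-boxes and 4 GC boxes, Lamb1 2 GC boxes and Tnc 1 GC box, and the Lamb3 stretch held none of the 5 motifs. GC content was 72.4% for Lama5, 62.0% for Lamb1, 58.8% for Lamb3 and 44.8% for Tnc, with a median of 52.0% over all stretches. These matches describe the letters only.

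For Py2T LT and M1 to M3 the 8 deposited libraries give RPKM (reads per kilobase of transcript, scaled to library size), with unknown absolute depth. The 12 M3 hairpin libraries give CPM (counts scaled to a library total of 1000000) and held 16086082 to 24977595 reads each. Values of the 2 sets were tested apart and are not compared. Tests used limma on log2(value + 0.5) after scaling by TMM factors (trimmed means, from edgeR), with p adjusted by Benjamini-Hochberg over all tested genes. A gene is called where its adjusted p is under 0.05. The p-values measure the spread between the libraries of 2 experiments in 1 line, not between lines or clones, and fewer cells of a kind cannot be told apart from less RNA per cell. Tet2 was 8.41 and 7.97 CPM in shTet2 and 15.1 and 13.8 CPM in untreated shControl, and Mbd3 was 22.1 and 27.7 CPM in shMbd3, which was not called against untreated shControl (log2 0.29, limma adjusted p = 0.794). One library stood apart. In the library labelled M3_shControl replicate 1 Mbd3 was 5.40 CPM, below both shMbd3 libraries, which goes against its label. In replicate 2 it was 66.5 CPM, above both shMbd3 libraries. The Mbd3 test above includes the library labelled replicate 1. Along deciles of gene GC content, lowest to highest, its log2 difference from replicate 2 also changed by -1.77, against changes of -0.389 to 0.0137 in the other 5 CPM pairs. Differences of the 9 genes against untreated shControl are therefore also given without it, and of the other genes those that moved. Summed markers of the 6 epithelial genes fixed for this check ranged from 1192 to 1242 RPKM in Py2T LT and from 1309 to 1935 RPKM in the clones, and those of 6 mesenchymal genes from 1442 to 1457 and from 497 to 722 RPKM. Endothelial markers summed to at most 1.47 RPKM or 1.43 CPM in any library and haematopoietic ones to at most 3.18 RPKM or 16.7 CPM.

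The comparison of the clones with Py2T LT asks how stable mesenchymal cells differ from cells held in TGF-beta. Tnc, Lamb3, Fn1 and Lamb1 were lower in the clones and Lama5 was far higher, so that the matrix genes did not move as one. With the 3 clones averaged, Lama5 was called higher and 4 genes lower. Lama4, also called higher, passed the filter only through M2 and so had to differ. With it 6 of 8 were called, where 65.1% of all 11717 tested genes were called, 32.1% higher and 33% lower. The median log2 difference of the 8 was -0.25, beside -0.01 over all tested genes. Nothing is read from the share called, and the sizes and directions of the single genes carry the description.

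**Figure D1:**
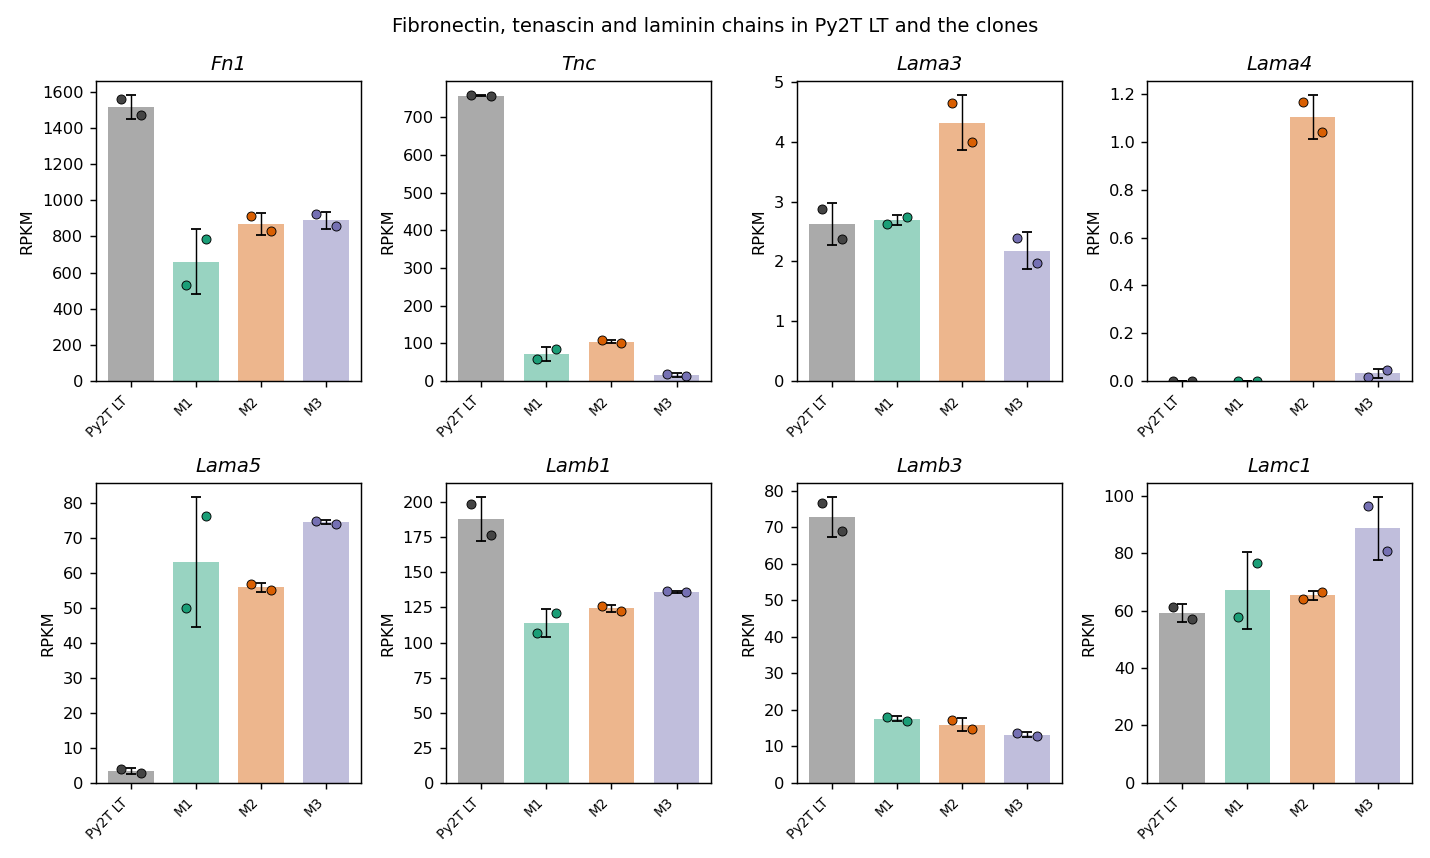
Level of each of the 8 detected genes in Py2T LT and clones M1, M2 and M3 (8 libraries), in RPKM on linear axes from 0. Points are single libraries, bars are means of 2 and whiskers are SD; Tnc and Lamb3 are highest in Py2T LT, Lama5 is lowest there and Lama4 is above 1 RPKM only in M2.

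Fibronectin was the most abundant of the 9 per length. Fn1 (gene 14268; GRCm38 chromosome 1, 71585473 to 71653280) was 1561 and 1469 RPKM in Py2T LT, 533 and 786 in M1, 913 and 827 in M2, and 923 and 855 in M3. All 6 clone libraries lay below both Py2T LT libraries, while those of M2 and M3 overlapped. The log2 difference was -1.27 ± 0.18 (SE) in M1, -0.82 ± 0.18 in M2 and -0.79 ± 0.18 in M3, with limma adjusted p of 0.000359, 0.00423 and 0.00496. The clones did not differ from each other in Fn1 by this test, with M2 against M1 at 0.45 and M3 against M1 at 0.48 (limma adjusted p = 0.103 and 0.165). Both passed without M1 replicate 2, at 0.75 and 0.79.

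Tenascin C fell furthest. Tnc (gene 21923; chromosome 4, 63959785 to 64047015) was 758 and 757 RPKM in Py2T LT, 58.6 and 83.8 in M1, 108 and 101 in M2, and 19.5 and 12.8 in M3. The 4 groups did not overlap, in the order Py2T LT, M2, M1 and M3. On the log2 scale M2 differed from Py2T LT by -2.87 ± 0.23, M1 by -3.47 ± 0.23 and M3 by -5.56 ± 0.23 (SE; limma adjusted p = 2.57e-05, 8.98e-06 and 5.84e-07), which is 7.32-fold, 11.1-fold and 47.2-fold lower on the value + 0.5 scale. M3 also fell below M1 by 2.09 and below M2 by 2.69 (limma adjusted p = 0.0029 and 0.000263), while M2 against M1, at 0.60, did not pass (adjusted p = 0.0972; 0.88 and called without M1 replicate 2). In M3 against M1, where 4.79% of all tested genes were called (2.82% higher, 1.97% lower), Tnc was the 1 called gene of the 8.

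Among the alpha chains Lama5 carried the change. Lama5 (gene 16776; chromosome 2, 180176373 to 180225904) was 4.05 and 2.68 RPKM in Py2T LT, 50.0 and 76.3 in M1, 56.8 and 55.0 in M2, and 74.9 and 74.1 in M3. Every clone library lay far above both Py2T LT libraries, and M1 overlapped with both other clones. The log2 difference was 3.99 in M1, 3.87 in M2 and 4.28 in M3 (SE 0.23 each; limma adjusted p = 3.23e-06, 3.79e-06 and 1.96e-06), or 15.9-fold, 14.6-fold and 19.5-fold. Lama3 (gene 16774; chromosome 18, 12333417 to 12583013), the alpha chain of the epithelial anchoring laminin, was low throughout, at 2.87 and 2.38 RPKM in Py2T LT, 2.63 and 2.75 in M1, 4.65 and 4.0 in M2, and 2.40 and 1.97 in M3. Only M2 stood above the others, by a log2 difference of 0.61 ± 0.15 against Py2T LT, 0.61 against M1 and 0.85 against M3, with limma adjusted p of 0.0087, 0.0232 and 0.00644. These Lama3 calls were lost without M2 replicate 1 (0.51 against Py2T LT and 0.52 against M1, and M3 against M2 at -0.73). Those against Py2T LT and M1 were also lost without Py2T_LT replicate 2 (0.49) and without M1 replicate 1 (0.57) or M2 replicate 2 (0.71), and M3 against M2 without M3 replicate 2 (-0.71).

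The 2 remaining alpha chains were scarce. Lama4 (gene 16775; chromosome 10, 38965515 to 39110188), the chain of vascular laminin, was listed at 0 in both libraries of Py2T LT and of M1, and measured 1.17 and 1.04 RPKM in M2 and 0.018 and 0.046 in M3. It entered the test only through M2, so it had to differ there, and its log2 difference of 1.68 ± 0.12 in M2 against Py2T LT (limma adjusted p = 6.5e-06) is no measure of fold against a group listed at 0. Endothelial markers summed to 0.0955 and 0.187 RPKM in the M2 libraries, with Emcn, Kdr and Vwf listed at 0. Lama1 (gene 16772; chromosome 17, 67697127 to 67822645) was listed at 0 in all 8 RPKM libraries and had 1 read in the 12 CPM libraries together, 0.042 CPM in shMbd3 with CI994 replicate 1, so it was not tested. A count of 0 allows up to 3 reads, which is 0.12 to 0.186 CPM per library (counting error only).

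The beta and gamma chains differed in size of change. Lamb3 (gene 16780; chromosome 1, 193294353 to 193343878), the beta chain that pairs with Lama3, was 76.8 and 69.1 RPKM in Py2T LT, 18.0 and 17.0 in M1, 17.3 and 14.6 in M2, and 13.7 and 12.7 in M3. All clone libraries lay below Py2T LT, by log2 differences of -2.07, -2.18 and -2.44 (SE 0.11 each; limma adjusted p at most 1.18e-06), and no pair of clones was called. Lamb1 (gene 16777; chromosome 12, 31265146 to 31329644), the common beta chain, was 199 and 177 RPKM in Py2T LT, 107 and 121 in M1, 126 and 122 in M2, and 137 and 136 in M3. It fell by 0.76, 0.61 and 0.48 on the log2 scale in the 3 clones (SE 0.11 each; limma adjusted p = 0.000334, 0.00125 and 0.00435). Lamc1 (gene 226519; chromosome 1, 153218922 to 153332786), the common gamma chain, was 61.3 and 57.0 RPKM in Py2T LT, 57.6 and 76.5 in M1, 64.2 and 66.5 in M2, and 96.4 and 80.9 in M3. M1 overlapped with Py2T LT, and only M3 was called, at 0.55 ± 0.15 (limma adjusted p = 0.0134), a call lost without Py2T_LT replicate 2 (0.53) or M3 replicate 1 (0.45).

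The counts called in single clones were 1 higher and 4 lower in M1, 3 and 4 in M2, and 2 and 4 in M3, where 61% (30.4% higher, 30.6% lower), 57.6% (28.3% and 29.3%) and 59.6% (29.4% and 30.2%) of all tested genes were called. Between the clones 2 of the 8 were called in M2 against M1 (22.9% of all genes, 10.7% higher and 12.2% lower), both higher in M2, and 3 in M3 against M2 (20.4%, 10.2% and 10.1%), all lower in M3. Lama4, which passed the filter only through M2 and so had to differ there, is counted in each of these comparisons that holds M2. Nothing is read from these counts. Per length, Lama5 made up 52.5% and 58.2% of the summed alpha chain RPKM in the 2 Py2T LT libraries and between 90.7% and 97.3% in the clone libraries. Lamb3 made up 26.6% and 26.7% of the summed beta chains in Py2T LT and between 7.94% and 13% in the clones. The ratio of Lamc1 to all alpha chains was 8.82 and 11.2 in Py2T LT and between 0.969 and 1.25 in the clones, so the summed alpha chain level was close to that of Lamc1 only in the clones.

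Other genes of the pathway moved both ways. In the mean of the clones 65.1% of all tested genes were called (32.1% higher, 33% lower), and no list is said to stand apart. The lists used were chosen with earlier results of these data known. Of 18 basement membrane partners 11 were tested, with 7 higher and 4 lower in the mean of the clones (median log2 difference 0.73). The collagen IV genes split, Col4a5 and Col4a6 being higher by 2.78 ± 0.12 and 2.30 ± 0.12 and Col4a1 and Col4a2 lower, at -6.96 ± 0.10 and -6.24 ± 0.10. Col4a1 measured 61.8 ± 4.6 RPKM (SD, n = 2) in Py2T LT, and no clone library exceeded 0.025. Of 7 tested laminin receptors 4 were higher and 3 lower. Itgb4 was 3.06 ± 0.74 RPKM in Py2T LT and 54.4 ± 0.32, 85.3 ± 4.1 and 52.3 ± 5.5 in M1, M2 and M3 (log2 4.13 ± 0.12), and Itga3 was higher by 1.13 ± 0.08, whereas Itgb1 was at -1.14 ± 0.09 and Itga7 at -0.72 ± 0.13. Of 6 tested receptors of fibronectin and tenascin 3 were higher and 2 lower, with the fibronectin receptor Itga5 at -2.22 ± 0.08 and Itgb3 at -5.15 ± 0.12, and Itga8, which binds tenascin C and nephronectin, at 1.57 ± 0.15. Of 14 tested partners of the fibronectin matrix 5 were higher and 8 lower, with osteopontin (Spp1) at 1.67 ± 0.10, transglutaminase (Tgm2) at 1.32 ± 0.08, Efemp2 at -5.71 ± 0.14 and fibulin 2 (Fbln2) at -2.29 ± 0.09. None of 2 tested other laminin and netrin chains was called by limma, and 0 had an unadjusted p under 0.05, the smallest being that of Ntn4 (-0.35, unadjusted p = 0.069, adjusted p = 0.0972).

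The knockdowns of Tet2 and of Mbd3 in M3 ask which genes depend on either protein in a mesenchymal clone. Tnc rose more than 10-fold in both knockdowns, and Lama3 and Lamb3, the chains of the epithelial anchoring laminin, rose with it, while Lama4 was lower. With shTet2 3 of the 8 tested genes rose and 1 fell, where 23.2% of all 12808 tested genes were called, 10.5% higher and 12.7% lower. With shMbd3 4 rose and 2 fell, where 32.1% were called, 15.6% higher and 16.6% lower. Leaving out the library labelled M3_shControl replicate 1 leaves replicate 2 as the only untreated shControl library, so no count is given for that fit. Its sizes are given with each gene. On only the 4 libraries compared shMbd3 gave 2 calls. Both comparisons share the same 2 control libraries. Summed epithelial markers were 975 and 2493 CPM in untreated shControl (the lower in the library that stood apart), 3603 to 4076 in shTet2 and 2637 to 2727 in shMbd3, and summed mesenchymal markers 2069 to 2096, 756 to 775 and 852 to 875 CPM. Without the library that stood apart, single markers of both lists moved against their sum in shMbd3, and of the mesenchymal list in shTet2. The part of these markers in the differences below was not tested.

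**Figure D2:**
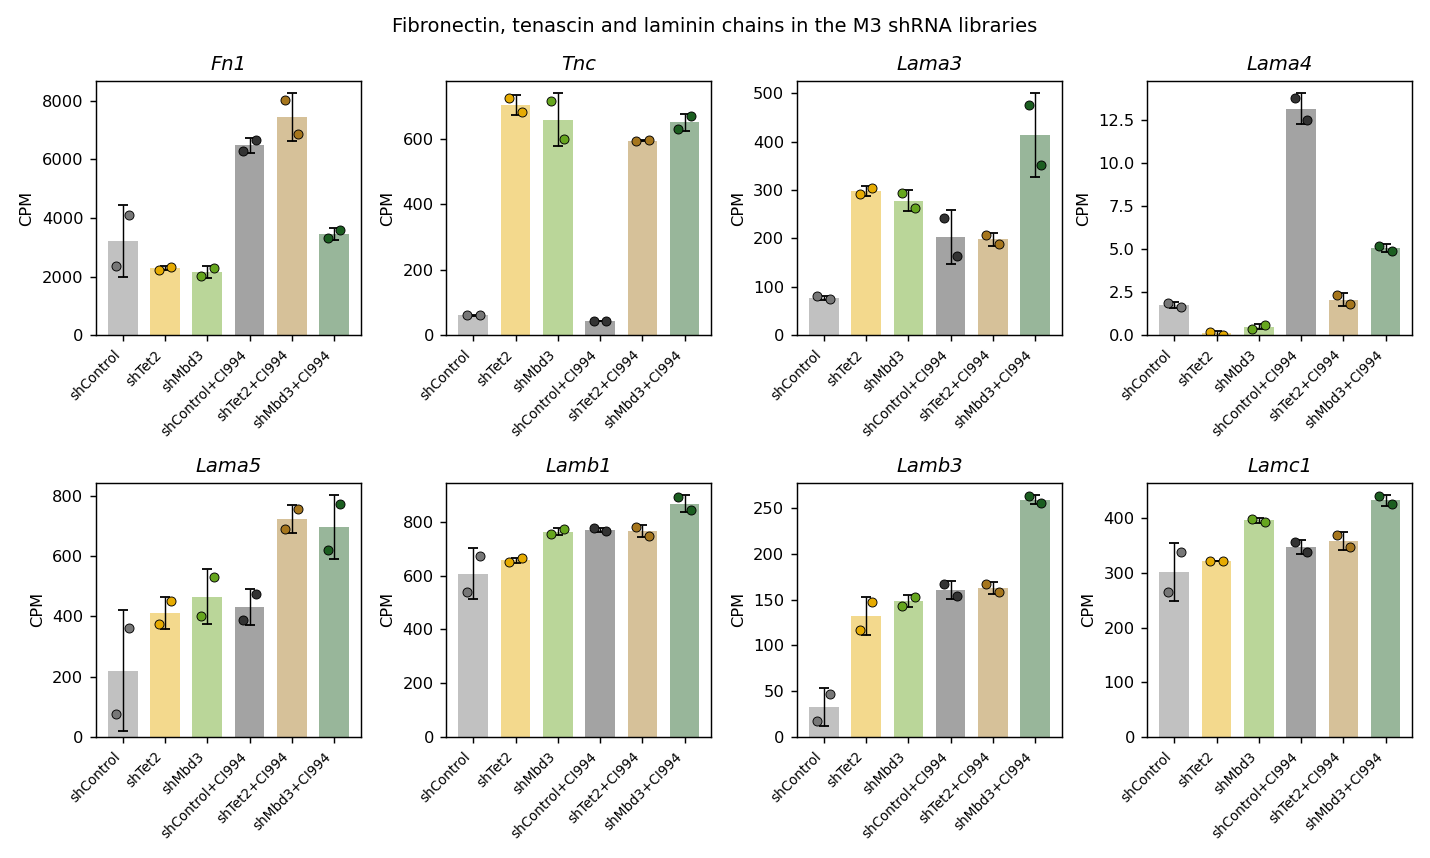
Level of each of the 8 detected genes in the 12 M3 hairpin libraries, in CPM on linear axes from 0, untreated and with CI994. Points are single libraries, bars are means of 2 and whiskers are SD; Tnc is high in all 8 knockdown libraries, Fn1 and Lama4 are highest with CI994, and the 2 untreated shControl points lie far apart for Lama5, Lamb3 and Fn1.

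Tnc was 60.1 and 61.8 CPM in untreated shControl, 727 and 684 with shTet2, and 717 and 602 with shMbd3. The shControl libraries lay close together and far below all 4 knockdown libraries. The log2 difference was 3.55 ± 0.11 in shTet2 and 3.36 ± 0.11 in shMbd3 (SE; limma adjusted p = 3.87e-07 and 7.66e-07), or 11.7-fold and 10.3-fold, and 3.59 and 3.40 without the library that stood apart. The 2 knockdowns did not differ by this test (0.19 ± 0.11, limma adjusted p = 0.269). In CPM per kilobase of transcript Tnc stood at 8.58 ± 0.17 in shControl, 99.3 ± 4.3 in shTet2 and 92.8 ± 11 in shMbd3 (SD, n = 2 each).

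Fn1 moved less and the other way. It was 2358 and 4100 CPM in untreated shControl, 2232 and 2326 with shTet2, and 2009 and 2290 with shMbd3. All knockdown libraries lay below both shControl libraries, but the lower shControl value is that of the library that stood apart and lies just above them. The log2 difference was -0.42 ± 0.19 in shTet2, which was not called (limma adjusted p = 0.144), and -0.59 ± 0.19 in shMbd3 (adjusted p = 0.0425). Without the library labelled M3_shControl replicate 1 both were called, at -0.76 and -0.93 (limma adjusted p = 0.000361 and 9.26e-05), and with the GC trend removed both were called at -0.56 and -0.82. The shMbd3 call was lost without any 1 of the other 11 libraries, at values from -0.67 to -0.25, the smallest without M3_shControl replicate 2, and with library size only or no filter on low values (adjusted p = 0.0852 and 0.0597).

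The alpha chains went 3 ways. Lama3 was 80.4 and 74.6 CPM in untreated shControl, 291 and 305 with shTet2, and 294 and 262 with shMbd3. Both knockdowns stood clear of shControl and overlapped with each other, with log2 differences of 1.97 ± 0.21 and 1.78 ± 0.21 (SE; limma adjusted p = 0.00022 and 0.000371), or 3.91-fold and 3.43-fold, and 2.08 and 1.89 without the library that stood apart. Lama4 was 1.88 and 1.63 CPM in shControl (41 and 34 reads), 0.189 and 0 in shTet2 (4 and 0 reads), and 0.376 and 0.58 in shMbd3 (9 and 13 reads). Its log2 difference was -1.95 ± 0.21 and -1.25 ± 0.21 (limma adjusted p = 0.000277 and 0.00306), or -1.83 and -1.12 without that library, and the size depends on the constant added to such low values, at -3.45 and -1.75 with 0.1 and -1.35 and -0.93 with 1. Lama4 was also lower in shTet2 than in shMbd3, by 0.70 (adjusted p = 0.0481), a call lost without any 1 of 9 of the 12 libraries, from -0.85 to -0.47 (adjusted p up to 0.295), with a constant of 1 (-0.42) and by edgeR (-2.14, adjusted p = 0.0658).

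Lama5 showed how far the control pair limits these comparisons. It was 77.0 and 360 CPM in untreated shControl, 375 and 450 with shTet2, and 401 and 529 with shMbd3. The first shControl library lay far below the second and the second just below the knockdowns, and neither difference was called, at 1.33 ± 0.52 and 1.41 ± 0.52 (limma adjusted p = 0.0924 and 0.0637). Without the library that stood apart the differences were 0.28 and 0.36 (adjusted p = 0.24 and 0.134), and with that library as the only control 2.38 and 2.46. With the replicate number as a block both passed, at the same values (adjusted p = 0.0498 and 0.0335), and with the GC trend removed both passed at 0.88 and 0.78.

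**Figure D3:**
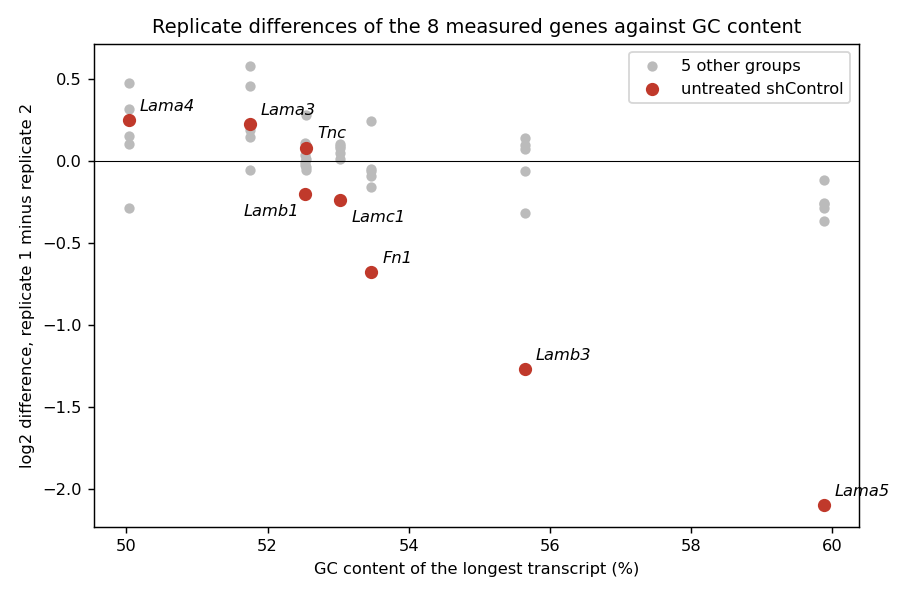
Difference between replicate 1 and replicate 2 on the log2(CPM + 0.5) scale for each of the 8 tested genes, against the GC content of the gene's longest transcript in percent. Red points are the untreated shControl pair, with Lama5 at -2.10, Lamb3 at -1.27 and Fn1 at -0.68; grey points are the other 5 groups.

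The members differed in how much that library touched them. Between the untreated shControl replicates the log2 difference was 0.25 for Lama4 and 0.23 for Lama3, whose transcripts have the lowest GC content of the 8 (50% and 51.7%), 0.08 for Tnc (52.5%), -0.20 for Lamb1 (52.5%), -0.24 for Lamc1 (53%), -0.68 for Fn1 (53.5%), -1.27 for Lamb3 (55.6%) and -2.10 for Lama5 (59.9%). Over these 8 genes GC content and the difference correlated at r = -0.969, a description over genes of 1 pair of libraries. Removing each library's trend along GC content left -1.02 for Lama5, -0.66 for Lamb3 and -0.35 for Fn1. Lama5, Lamb3 and Fn1 thus differed most between the 2 control libraries, and the other 5 genes by at most 0.25 in size.

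Lamb3 followed Lama3. It was 17.6 and 47.0 CPM in untreated shControl, 117 and 147 with shTet2, and 143 and 152 with shMbd3. Every knockdown library was above both controls, by log2 differences of 2.20 ± 0.32 and 2.28 ± 0.32 (SE; limma adjusted p = 0.00139 and 0.00103), and by 1.56 and 1.65 without the library labelled M3_shControl replicate 1, with adjusted p of 5.71e-06 and 4.18e-06. Fitted on only the groups compared, neither passed (adjusted p = 0.0931 and 0.0741). Lamb1 was 540 and 674 CPM in untreated shControl, 650 and 665 with shTet2, and 755 and 774 with shMbd3, and was called in neither (0.16 and 0.28 ± 0.10; limma adjusted p = 0.277 and 0.0556), nor without the library that stood apart (0.06 and 0.18). With the replicate number as a block the shMbd3 value passed (adjusted p = 0.04). Lamc1 was 264 and 339 CPM in untreated shControl, 322 and 321 with shTet2, and 399 and 393 with shMbd3. In shTet2 it was not called without the library that stood apart either (0.01, adjusted p = 0.915). It rose in shMbd3 by 0.35 ± 0.11 (limma adjusted p = 0.0357), a call lost without 10 of the 12 libraries (0.23 to 0.37), among them the library that stood apart (0.23, adjusted p = 0.0502), and with the GC trend removed (0.15).

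Levels of the laminin chains were then compared per kilobase of transcript. Lamb1 was the most abundant of the 5 plotted chains, at 105 ± 16 CPM per kilobase in untreated shControl, 114 ± 1.8 in shTet2 and 132 ± 2.3 in shMbd3. Lama3 stood at 7.35 ± 0.39 in shControl, 28.2 ± 0.90 in shTet2 and 26.4 ± 2.1 in shMbd3, and Lamb3 at 6.63 ± 4.3, 27.1 ± 4.3 and 30.4 ± 1.3 CPM per kilobase (SD, n = 2 each). Per length Lama3 and Lamb3 thus lay close together in both untreated knockdowns. The shControl means were also close, but they rested on Lamb3 libraries that differed. Lamb3 was 3.62 CPM per kilobase in the library that stood apart and 9.65 in replicate 2, where Lama3 was 7.62 and 7.07. With CI994 the Lamb3 mean was the higher one in every hairpin line, for example 33.5 against 18.8 for shTet2. Among the RPKM libraries, clone M3 had Lamb3 at 13.7 and 12.7 and Lama3 at 2.40 and 1.97. Summed markers of basal and myoepithelial cells, which make both chains, were 3.34 and 5.89 CPM in untreated shControl, 5.15 and 6.03 in shTet2, 17.6 and 23.4 in shMbd3, and 26.2 to 109 in the treated groups. Krt5 was at 0 in untreated shControl, in untreated shMbd3 and in treated shControl. Without the library that stood apart, 1 of the 5 genes passed the low-value filter, so the sums largely give the level of that gene. The part of these markers in the differences was not tested.

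**Figure D4:**
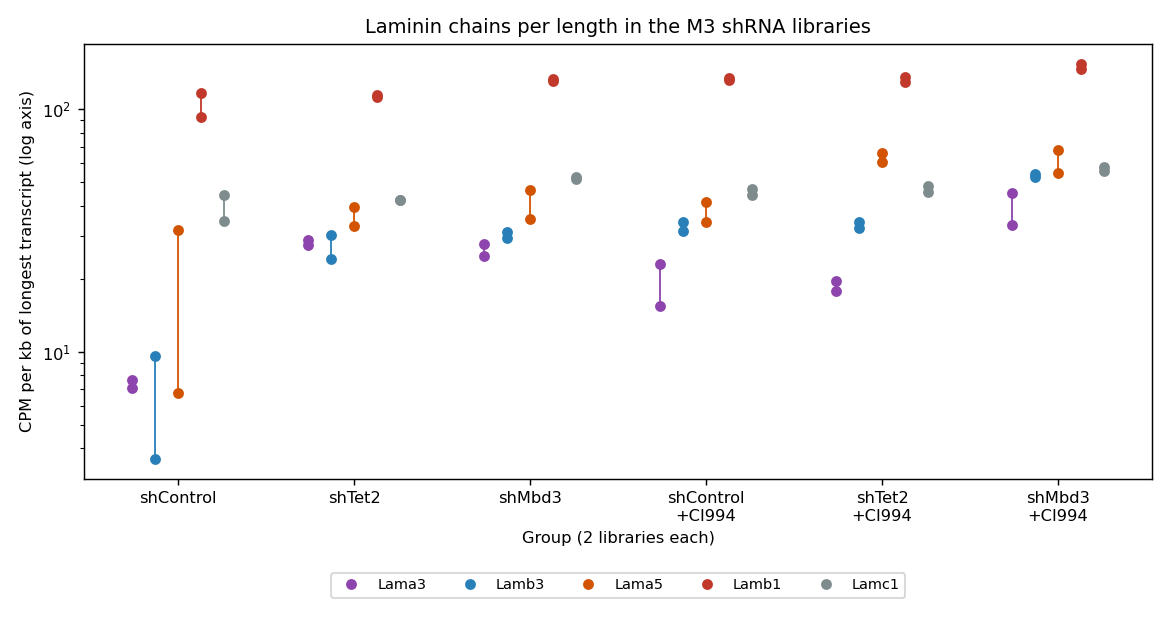
Level per length, in CPM per kilobase of the longest transcript on a log axis, of 5 laminin chains in the 12 M3 hairpin libraries. Points are single libraries joined by a line within a group; Lamb1 lies highest in all 6 groups, while Lama3 and Lamb3 lie lowest in untreated shControl.

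Genes of the lists around these moved both ways in the knockdowns, where 23.2% and 32.1% of all genes were called, and no list is said to stand apart. Of 12 tested basement membrane partners 2 rose and 3 fell in shTet2 and 2 rose and 0 fell in shMbd3. In shTet2 agrin (Agrn) rose by 0.75 ± 0.21, nephronectin (Npnt) fell by 1.68 ± 0.16 and nidogen 1 (Nid1) by 1.16 ± 0.19 on the log2 scale, and in shMbd3 osteonectin (Sparc) rose from 384 ± 12 to 812 ± 41 CPM. Of 16 tested partners of the fibronectin matrix 4 rose and 3 fell in shTet2 and 5 rose and 6 fell in shMbd3. The matricellular gene Ccn2 rose by 1.59 ± 0.16 and 1.69 ± 0.16, Tgfbi fell by 2.26 ± 0.25 and 2.69 ± 0.25, and osteopontin (Spp1) fell by 0.55 ± 0.14 and 1.39 ± 0.14. Of 7 tested receptors of fibronectin and tenascin 1 rose and 2 fell in shTet2 and 2 rose and 3 fell in shMbd3. Itga8 fell from 33.2 ± 4.2 CPM to 1.73 ± 0.24 in shTet2 and 0.673 ± 0.18 in shMbd3, and Itgb8 fell by 2.26 ± 0.22 and 2.22 ± 0.22, whereas Itgb6, whose product binds both ligands, rose by 1.85 ± 0.25 and 2.65 ± 0.25. Of 8 laminin receptors 1 rose and 1 fell in shTet2, Itga6 by 0.71 ± 0.18 and Itga7 at -1.18 ± 0.30, and 2 rose in shMbd3, Bcam and Itga3, by 1.12 ± 0.23 and 1.25 ± 0.39. Of the other tenascins, Tnxb rose in shTet2 (1.61 ± 0.40, from 0.475 ± 0.41 to 2.40 ± 1.3 CPM) and Tnr was at -0.47 in shMbd3 (limma adjusted p = 0.167). Each of these named calls remained without the library labelled M3_shControl replicate 1. There 2 values moved by over 1.5 times, Agrn in shTet2 (0.36) and Itga3 in shMbd3 (0.46). The other rises among the basement membrane partners, Col15a1 in shTet2 (0.52) and Smoc1 in shMbd3 (0.94), lost their calls there, at 0.49 and 0.75. Without it the counts called also changed, among them those of the basement membrane partners in both knockdowns and of the laminin receptors in shTet2.

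CI994 was given to ask what class I deacetylase inhibition changes in the same cells. In shControl it raised Fn1, the alpha chains Lama3 and Lama4 and the beta chains Lamb3 and Lamb1, and lowered Tnc. Fn1 and Lama4 rose in all 3 hairpin lines. There 5 of the 8 tested genes rose and 1 fell, where 33.5% of all tested genes were called, 18% higher and 15.5% lower. Fitted on only the 4 libraries compared, CI994 in shControl gave 0. Sizes without the library labelled M3_shControl replicate 1 are given with each gene below. In shTet2 2 rose and 1 fell (24.2% of all genes called, 12.4% higher and 11.8% lower), and in shMbd3 2 rose and 0 fell (12.6%, 7.45% and 5.14%). The 3 comparisons use separate libraries, while the first shares its untreated controls with the knockdown comparisons. Summed epithelial markers were 3584 and 3589 CPM in shControl with CI994, and all 6 rose against untreated shControl. Mesenchymal markers summed to 2022 and 2097 CPM, though some of them fell when the library that stood apart was left out. The part of either list in the results was not tested.

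Fibronectin responded to CI994 in each line. Fn1 was 6300 and 6667 CPM in treated shControl, 8023 and 6858 in treated shTet2, and 3315 and 3602 in treated shMbd3. Each treated pair lay above its untreated pair, and the treated shMbd3 libraries overlapped with the untreated shControl range. The log2 difference was 1.03 ± 0.19 in shControl, 1.63 ± 0.19 in shTet2 and 0.68 ± 0.19 in shMbd3 (SE; limma adjusted p = 0.00589, 0.000708 and 0.0495). Without the library that stood apart the shControl value was 0.69 (adjusted p = 0.001). The shMbd3 call was lost without any 1 of the 10 libraries that are not untreated shControl (0.60 to 0.76, adjusted p up to 0.266), with library size only (adjusted p = 0.0695), with no filter (0.0653), with a constant of 0.1 (0.0514) and by edgeR's quasi-likelihood test (0.0501).

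Tnc responded little to CI994 beside its response to the knockdowns. It was 42.3 and 44.0 CPM in treated shControl, 594 and 596 in treated shTet2, and 633 and 670 in treated shMbd3. The treated shControl libraries lay below the untreated ones, and the treated shMbd3 libraries overlapped with theirs. It fell by 0.53 ± 0.11 on the log2 scale in shControl (limma adjusted p = 0.00925; -0.49 without the library that stood apart, 0.00592), a call lost without either treated shControl library (-0.51 without replicate 1 and -0.52 without replicate 2). The difference was -0.32 ± 0.11 in shTet2 (adjusted p = 0.0622) and -0.02 ± 0.11 in shMbd3 (adjusted p = 0.917). The shTet2 value passed without either untreated shControl library (adjusted p = 0.00829 and 0.00838) and with the replicate number as a block (0.0386).

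Lama4 was the chain raised in every line. It was 13.8 and 12.5 CPM in treated shControl (345 and 249 reads), 2.32 and 1.79 in treated shTet2, and 5.21 and 4.91 in treated shMbd3. The treated groups did not overlap with one another, in the order shControl, shMbd3 and shTet2, nor did their untreated groups. The log2 differences were 2.58, 2.09 and 2.49 (SE 0.21 each; limma adjusted p = 0.000164, 0.000373 and 0.000384) in shControl, shTet2 and shMbd3. The shControl value was 2.70 without the library that stood apart (adjusted p = 5.26e-05). On the recovered reads edgeR gave 2.87, 4.27 and 3.39, the larger values being those of the lines with the fewest untreated reads. Endothelial markers summed to at most 1.43 CPM in the treated libraries, with Emcn and Kdr at 0.

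The anchoring chains Lama3 and Lamb3 rose with CI994 in shControl, while in the knockdowns 1 of their 4 differences was called, the fall of Lama3 in shTet2. Lama3 was 242 and 164 CPM in treated shControl, 207 and 189 in treated shTet2, and 475 and 353 in treated shMbd3. It rose by 1.32 ± 0.21 in shControl, fell by 0.66 ± 0.21 in shTet2 and differed by 0.55 ± 0.21 in shMbd3 (SE; limma adjusted p = 0.00279, 0.0452 and 0.121). The shControl value was 1.44 without the library that stood apart (adjusted p = 0.000855). The fall in shTet2 was lost without any 1 of 6 libraries, namely those of untreated and treated shTet2 and of untreated shMbd3 (-0.74 to -0.59, adjusted p up to 0.199), with library size only (-0.59) and with no filter (adjusted p = 0.0614). The shMbd3 value passed without either untreated shControl library (0.55, adjusted p = 0.0295 and 0.0298) and with the replicate number as a block (0.0362). Lamb3 was 167 and 154 CPM in treated shControl, 167 and 158 in treated shTet2, and 263 and 256 in treated shMbd3. In shControl it rose by 2.42 ± 0.32 (limma adjusted p = 0.0013) and by 1.79 without the library that stood apart (6.65e-06). In shTet2 and shMbd3 it differed by 0.24 and 0.80 ± 0.32 (adjusted p = 0.596 and 0.142), and the shMbd3 value passed without either untreated shControl library (0.80, adjusted p = 0.000149 and 0.000153).

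Of Lama5 and the common chains 1 was called with CI994, Lamb1 in shControl. Lama5 was 389 and 472 CPM in treated shControl, 689 and 754 in treated shTet2, and 620 and 771 in treated shMbd3. Each treated library lay above its own untreated group, but the differences of 1.33, 0.74 and 0.57 (SE 0.52 each) were not called (limma adjusted p = 0.0709, 0.306 and 0.514). Without the library labelled M3_shControl replicate 1 the shControl value was 0.28 (adjusted p = 0.25), and the other two passed at the same values (0.00115 and 0.00784), where the spread shared by the fit no longer holds that of the untreated shControl pair. With a block for the replicate number the shControl value passed (adjusted p = 0.0381). Lamb1 was 776 and 766 CPM in treated shControl, 783 and 750 in treated shTet2, and 892 and 845 in treated shMbd3. It rose in shControl by 0.32 ± 0.10 (limma adjusted p = 0.036), a call lost without any 1 of 10 libraries (0.30 to 0.37), with the GC trend removed (0.14), and at the limit without the library that stood apart (0.22, adjusted p = 0.0498). Lamc1 was 356 and 339 CPM in treated shControl, 370 and 347 in treated shTet2, and 440 and 426 in treated shMbd3, and it was called in none of the 3 lines (0.18, 0.08 and 0.12 ± 0.11; 0.06 in shControl without the library that stood apart).

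For CI994 in shControl 33.5% of all tested genes were called (18% higher, 15.5% lower), and no list is said to stand apart. In the lists, CI994 in shControl raised 5 and lowered 2 of 12 tested basement membrane partners, with agrin (Agrn) at 397 ± 8.2 CPM against 172 ± 73 and nephronectin (Npnt) at 22.4 ± 1.4 against 51.9 ± 7.7. Of 16 partners of the fibronectin matrix it raised 7 and lowered 2, with fibulin 2 (Fbln2) higher by 2.29 ± 0.23, Ccn2 by 1.5 ± 0.16 and the latent TGF-beta binding protein Ltbp1 at -0.57 ± 0.11. It raised 3 of 8 laminin receptors, Bcam by 2.19 ± 0.23 and dystroglycan (Dag1) by 0.79 ± 0.18 among them. Of 7 receptors of fibronectin and tenascin it raised 2, Itgb5 and Itgb3, by 1.04 ± 0.19 and 0.99 ± 0.24, and lowered 2, Itga8 and Itgb8, at -3.48 ± 0.19 and -1.44 ± 0.22. Both tested other tenascins rose, Tnr by 2.13 ± 0.25 and Tnxb by 1.98 ± 0.40, from under 1 CPM to 3.05 ± 1.3 and 3.21 ± 0.52. Among 3 tested other laminin and netrin chains Lamc3 rose, by 0.80 ± 0.25. The Lamc3 call was lost without the library labelled M3_shControl replicate 1 (0.64, limma adjusted p = 0.14), while the other named calls remained and Dag1 moved by over 1.5 times, to 0.48.

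**Figure D5:**
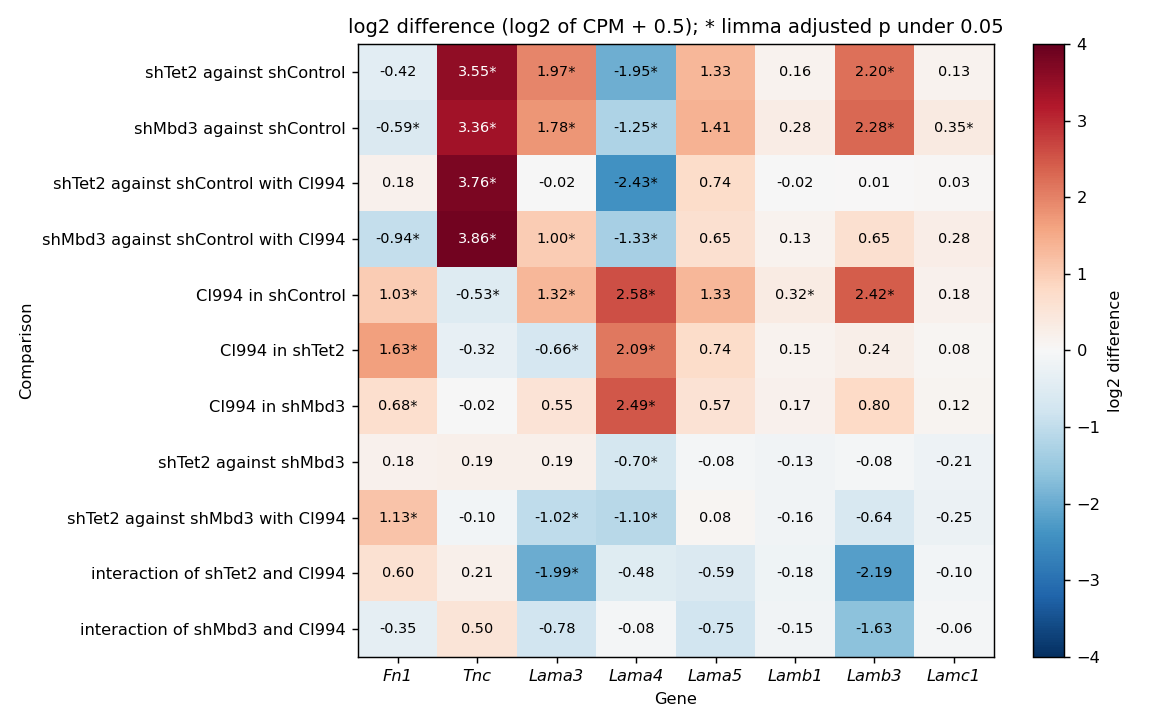
Fitted log2 difference of each of the 8 tested genes in 11 comparisons of the M3 hairpin libraries, red for higher and blue for lower in the first group named, with an asterisk where the limma adjusted p is under 0.05. The Tnc column is above 3 in each plotted comparison of a knockdown group with shControl, and the Lama4 column is above 2 in the 3 comparisons of CI994.

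Under CI994 the knockdowns were compared within treated libraries, without the one that stood apart. Neither target passed the test there. Tet2 was 8.13 and 11.4 CPM in treated shControl and 6.30 and 7.42 in treated shTet2 (log2 -0.47, limma adjusted p = 0.124), and it had fallen with CI994 in shControl (-0.60, adjusted p = 0.0363). Mbd3 was 53.6 and 67.7 CPM in treated shControl and 16.6 and 21.9 in treated shMbd3 (log2 -1.67, limma adjusted p = 0.196). In both targets the treated knockdown libraries lay below both treated controls. Tnc was higher than in treated shControl by 3.76 ± 0.11 in shTet2 and 3.86 ± 0.11 in shMbd3 (SE; limma adjusted p = 5.45e-07 and 4.24e-07), and Lama4 was lower by 2.43 and 1.33 (SE 0.21; adjusted p = 9.24e-05 and 0.00248, the second at 0.0596 with a constant of 0.1). With shTet2 these were the 2 called genes of the 8, where 15.8% of all genes were called, 6.55% higher and 9.24% lower. With shMbd3 there were 4, where 18.9% were called, 7.99% higher and 10.9% lower, the others being Lama3, higher by 1.00 ± 0.21, and Fn1, lower by 0.94 ± 0.19 (limma adjusted p = 0.00898 and 0.00826). The Fn1 and Lama3 calls were lost without M3_shControl_CI994 replicate 2 (-0.91 and 0.71) or M3_shMbd3_CI994 replicate 1 (-0.90 and 0.77). Lamb3 and Lama3 did not differ from treated shControl in shTet2 by this test, at 0.01 ± 0.32 and -0.02 ± 0.21. Lama5, not among these calls, was higher by 0.74 and 0.65 and passed in both when the library that stood apart was left out of the shared spread. So did Lamb3 and Lamc1 in shMbd3, at 0.65 and 0.28.

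The 2 knockdowns were also compared with each other. Lama4 was the 1 called gene of the 8 without CI994, where 19.1% of all genes were called (9.49% higher, 9.6% lower). With CI994 3 were called, where 21.8% of all genes were (11% and 10.8%): Fn1 was higher in shTet2 by 1.13 ± 0.19, and Lama3 and Lama4 were lower by 1.02 ± 0.21 and 1.10 ± 0.21 (SE; limma adjusted p = 0.0035, 0.008 and 0.00645). The Lama3 call was lost without M3_shTet2_CI994 replicate 2 (-0.95) or M3_shMbd3_CI994 replicate 1 (-0.79), and the Lama4 call without M3_shTet2_CI994 replicate 2 (-0.95) and with a constant of 0.1 (adjusted p = 0.0793). Whether the difference between the knockdowns changed with CI994 was not tested as such.

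Against untreated shControl the combined treatments raised most of the set. With shTet2 and CI994 6 of the 8 rose and 0 fell, where 58.8% of all genes were called (29.6% higher, 29.2% lower), and with shMbd3 and CI994 7 rose and 0 fell, where 55% were called (27.8% higher, 27.3% lower). On only the 4 libraries compared the counts were 3 and 4. Tnc was higher by 3.23 and 3.34 (SE 0.11), Lamb3 by 2.44 and 3.08 (SE 0.32), Lama5 by 2.07 and 1.98 (SE 0.52), Lama3 by 1.30 and 2.33 (SE 0.21) and Lamb1 by 0.30 and 0.46 (SE 0.10). Without the library that stood apart Lamb3 was 1.80 and 2.44, Lama5 1.02 and 0.93, Tnc 3.27 and 3.38, Lama3 1.42 and 2.44 and Lamb1 0.20 and 0.36, all with limma adjusted p under 0.05. Fn1 rose with shTet2 and CI994 by 1.21 ± 0.19 but differed by 0.08 ± 0.19 with shMbd3 and CI994 (limma adjusted p = 0.724), and Lama4 rose with the latter by 1.25 ± 0.21 and differed by 0.14 ± 0.21 with the former. Leaving out the library that stood apart, these were 0.87 and -0.26 for Fn1, and 1.37 and 0.27 for Lama4, with the same calls. Lamb1 with shTet2 and CI994 lost its call without either library of that group (0.26 and 0.34) and with the GC trend removed (0.09), and Lama5 with shMbd3 and CI994 without M3_shMbd3_CI994 replicate 2 (1.84, adjusted p = 0.0677).

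The interaction, the knockdown difference with CI994 minus that without it, asks whether the responses add up. With shTet2 it was called for 1 of the 8, where 0.687% of all tested genes were called (0.414% higher, 0.273% lower): Lama3 stood 1.99 ± 0.29 below the sum of the single differences on the log2 scale (limma adjusted p = 0.0227). That call was lost without any 1 of 8 libraries, namely those of untreated and treated shTet2, untreated shMbd3 and treated shControl (-2.30 to -1.70, adjusted p up to 0.121). Without the library labelled M3_shControl replicate 1 it was -2.10 (adjusted p = 0.00431), and Lamb3 and Fn1 were called as well, at -1.55 and 0.94 (0.00174 and 0.00628). With all libraries Lamb3 was at -2.19 ± 0.45 (adjusted p = 0.0779) and Fn1 at 0.60 ± 0.27 (0.446). With shMbd3 the limma fit called 0 of the 8, where 0.0781% of all tested genes were called (0.039% each way). edgeR and DESeq2 on the recovered reads called 0 as well. In limma Tnc was at 0.50 ± 0.16, Lamb3 at -1.63 ± 0.45 and Lama3 at -0.78 ± 0.29, none of them called. Without the library that stood apart Lamb3 was called, at -0.99 (adjusted p = 0.0234).

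The share of Lama5 among the summed alpha chains, in CPM per kilobase, was 46.0% and 81.1% in the 2 untreated shControl libraries, the lower in the one that stood apart. It was 54.3% and 57.7% in shTet2, 55.8% and 65.0% in shMbd3, 57.5% and 70.2% in treated shControl, 75.1% and 78.4% in treated shTet2, and 54.2% and 66.4% in treated shMbd3. The share of Lamb3 among the beta chains was 3.69% and 7.36% in untreated shControl, between 17% and 20% in the untreated knockdowns, and 24.9% in both treated shMbd3 libraries. Lamb1 over Lamc1 per length lay between 2.49 and 2.98 in all 12 libraries. In the RPKM libraries this ratio was 3.25 and 3.10 in Py2T LT and between 1.42 and 1.97 in the clones. The 2 chains share trimers, and whether that bears on their ratio was not tested.

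For each gene the pair of other genes most alike across the 12 M3 hairpin libraries was found among 9947 genes of at least 5 CPM, by Pearson correlation of log2(CPM + 0.5), as a description of libraries that share lines and treatments. They were Prpf40b and Nicn1 for Fn1 (r = 0.972 and 0.966), B4galnt3 and Ttc9 for Tnc (0.985 and 0.982), Mal and Dlst for Lama3 (0.954 and 0.933), and the chemokine genes Ccl2 and Ccl7 for Lama4 (0.988 and 0.985). They were Cc2d1a and Ssh3 for Lama5 (0.996 and 0.993), Ddx24 and Cd3eap for Lamb1 (both 0.983), Psmd13 and Ppm1g for Lamb3 (0.981 and 0.979), and Rnf114 and Rrad for Lamc1 (0.977 and 0.976). Over the 11 libraries other than the one that stood apart, both genes were found again for Lama4 and Lamb1, 1 of the pair for Fn1 (Nicn1), Tnc (B4galnt3), Lama3 (Mal), Lama5 (Cc2d1a) and Lamc1 (Rrad), and neither for Lamb3. Without it the beta chain Lamb2 was among the pair for Lama5 (r = 0.983).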

How the data were processed

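Total RNA libraries (TruSeq Stranded, per the labels' protocols) were aligned with STAR to mm10, per the submitters' processing notes; versions, the counting tool and the annotation are not given in the sources used here. The authors deposited RPKM for Py2T LT and the clones (8 libraries, 19311 genes) and CPM for the M3 hairpin lines (12 libraries, 24454 genes). Whether the RPKM count reads or fragments could not be told. Every deposited CPM value was a whole number of reads within 0.01 (100% of values), so 16086082 to 24977595 reads per library were recovered for edgeR 4.0.16 and DESeq2 1.42.0 as alternatives. Tested genes reached 1 RPKM (11717 genes) or 0.5 CPM (12808 genes) in 2 libraries. They were tested with limma 3.58.1 (trend, robust) on log2(value/TMM factor + 0.5) in R 4.3.3, each set in 1 fit over all its groups, in 20 comparisons. The fit was run on simulated data with the same spread for every gene and no GC trend. That check does not cover a pair of libraries as unlike as the untreated shControl pair. The members and lists were chosen with earlier results of these data known. Other genes named are up to 2 rises and 2 falls of smallest adjusted p per list and comparison, at 1 RPKM or CPM or more in the higher group, or the gene of smallest p where none passed. Alternatives covered scaling, the low-value filter, the added constant, a replicate block, GC trends, the groups fitted, each library left out and the count tools; the most-alike genes without the library labelled M3_shControl replicate 1 were added after seeing the data. The 7 repeat columns of 1 RPKM file equalled the columns they repeat. Transcript lengths and GC content came from the longest GENCODE M21 transcript, and gene positions from RefSeq; a transcript was found for 94.4% and 95.6% of tested genes. One gene of the lists is not reported here.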

Additional observations from a re-analysis of the deposited data

Results flagged for a closer look

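The difference from Py2T LT in Lama3 was larger in M2 than in M1 by 0.61 and smaller in M3 than in M2 (-0.85), by the direct contrast of the clones in limma (adjusted p = 0.0232 and 0.00644). These 2 calls were lost when 1 of several libraries was left out, as given beside them above. That in Lama4 was larger in M2 than in M1 by 1.68 and smaller in M3 than in M2 (-1.59). Lama4 was tested only through its level near 1 RPKM in M2, so it had to differ there and these 2 values are a description. The fall of Tnc from Py2T LT was deeper in M3 than in M1 (-2.09) and than in M2 (-2.69), with limma adjusted p of 0.0029 and 0.000263.

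The response of Lama3 to CI994 differed between shTet2 and shControl, with an interaction of -1.99 (limma adjusted p = 0.0227). Lama3 rose with CI994 in shControl and fell in shTet2, in both libraries of each. The calls of the interaction and of the fall in shTet2 were each lost when any of several single libraries was left out, as given above. Fitted on only the groups compared, the interaction was not called.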

How the results depend on the processing

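The 160 fitted differences of the 8 genes, 75 of them past the threshold, were recomputed under 3326 alternatives. Of those past the threshold 0 changed sign. In 68 of the alternative fits, of 28 distinct values that had not passed, the sign was the opposite. A call was lost 122 times and gained 110 times. The number of the 8 genes called moved by over 1.5 times as follows. Fitted on only the groups compared, it was 1 for M2 against M1, 5 for M3 against M2, 2 for shMbd3 against shControl, 0 for CI994 in shControl, 5 for CI994 in shTet2 and in shMbd3, 7 for shMbd3 against shControl with CI994, 5 for shTet2 against shMbd3 with CI994, 3 and 4 for shTet2 and shMbd3 with CI994 against untreated shControl, and 0 for the interaction of shTet2 and CI994; these fits have few residual degrees of freedom and do not share the spread. For CI994 in shMbd3 it was 1 by library size only, with no filter, with a constant of 0.1 and by edgeR. For shTet2 against shMbd3 it was 0 with no filter, with a constant of 1 and by edgeR. The interaction of shTet2 and CI994 gave 2 by DESeq2 and 3 with the GC trend removed, which also gave 5 for shTet2 against shMbd3 with CI994. For other changes the cause was not tested. Over all genes, limma, edgeR and DESeq2 called 2973, 2918 and 3446 for shTet2 against shControl, 4117, 3970 and 4601 for shMbd3 against shControl, and 4290, 4073 and 4904 for CI994 in shControl.

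Leaving out 1 library at a time gave 5 to 7 for the mean of the clones and for M2 against Py2T LT, 5 to 6 for M1 and for M3 against Py2T LT, 0 to 4 for M2 against M1, 1 to 5 for M3 against M1, 1 to 4 for M3 against M2, 4 to 7 for shTet2 and for shMbd3 against shControl, 4 to 8 for CI994 in shControl, 2 to 5 in shTet2 and 1 to 6 in shMbd3. It gave 2 to 3 and 2 to 7 for shTet2 and shMbd3 against shControl with CI994, 0 to 2 for shTet2 against shMbd3 and 1 to 5 with CI994, 5 to 7 and 6 to 8 for shTet2 and shMbd3 with CI994 against untreated shControl, and 0 to 4 for both interactions. Where an arm was left with 1 library, that library was assumed to vary like the others.

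Values not past the threshold that changed sign did so over these ranges when 1 library was left out: Lama3 -0.12 to 0.106 and Lamc1 -0.107 to 0.345 in M1 against Py2T LT; Lama5 -0.446 to 0.207, Lamb3 -0.231 to 0.006 and Lamc1 -0.228 to 0.229 in M2 against M1; Lama5 -0.013 to 0.618 in M3 against M1; Fn1 -0.021 to 0.127 in M3 against M2; Tnc -0.165 to 0.118 for CI994 in shMbd3; Lama3 -0.322 to 0.27, Lamb1 -0.06 to 0.019, Lamb3 -0.07 to 0.082 and Lamc1 -0.023 to 0.087 in shTet2 against shControl with CI994; Lama5 -0.261 to 0.106 and Lamb3 -0.242 to 0.076 in shTet2 against shMbd3, and Lama5 -0.057 to 0.226 with CI994. Against untreated shControl Lama4 with shTet2 and CI994 ranged from -0.016 to 0.3 and Fn1 with shMbd3 and CI994 from -0.255 to 0.423. The interactions ranged from -1.64 to 0.459 for Lama5 and -0.22 to 0.02 for Lamc1 with shTet2, and from -0.224 to 0.06 for Lama4, -1.802 to 0.297 for Lama5 and -0.184 to 0.055 for Lamc1 with shMbd3.

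Removing the GC trend, with or without the block, turned Lama5 (0.194) and Lamb3 (0.051) in M2 against M1, Lamc1 for CI994 in shControl (-0.04), Lamb3 (-0.081) and Lamc1 (-0.073) for CI994 in shTet2, Lamb3 (-0.124) and Lamc1 (-0.014) in shTet2 against shControl with CI994, Lama5 (0.103) and Lamb3 (0.019) in shTet2 against shMbd3, Lamc1 with shTet2 and CI994 (-0.055) and Fn1 with shMbd3 and CI994 (-0.205) against untreated shControl, and Lamb1 (0.003) and Lamc1 (0.109) in the interaction of shMbd3 and CI994. The Lama4 interactions, -0.48 with shTet2 and -0.08 with shMbd3, were 0.808 and 0.356 with a constant of 0.1, 1.398 and 0.524 by edgeR, and 1.487 and 0.556 by DESeq2. By library size only Lama3 in M1 against Py2T LT was 0.033 and Lamc1 in M2 against M1 was -0.023, and on only the groups compared the former was 0.018.

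Same-numbered libraries deviated from their group means together in the CPM set (correlation 0.0954 to 0.523, over 0.1 in 14 of 15 pairs of groups) but not in the RPKM set (-0.122 to 0.128, over 0.1 in 1 of 6). Since 1 CPM pair also lay under 0.1, the numbers were not taken to pair the samples in either set, though the CPM libraries come close. With the replicate block 154 of 160 values kept their side of the threshold, and the 6 gained were Lama5 in shTet2 (1.33) and shMbd3 (1.41) against shControl and for CI994 in shControl (1.33), Lamb1 in shMbd3 against shControl (0.28), Tnc for CI994 in shTet2 (-0.32) and Lama3 for CI994 in shMbd3 (0.55). With the block and the GC trend removed the counts were 4 for CI994 in shMbd3, 3 for shTet2 against shMbd3, 6 with CI994, and 3 and 2 for the interactions with shTet2 and shMbd3. Depth limits Lama1 and Lama4, whose counts lay at or near the floor of 3 reads in several groups.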
